A study of Homo sapiens with 6 samples.

Results

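The genes of arginine synthesis, transport and use were examined in PC-3 cells depleted of CdGAP. They were ASS1, ASL, SLC7A1, SLC7A2, ARG2, OAT, ODC1, SMS, GATM and AGMAT, which is 10 of the 64253 genes in the count tables and 10 of the 16439 genes with enough reads to be tested. The 10 were picked by symbol with the shCdGAP against shCon values of these libraries already known, so their differences are given here as a description. No p-value is printed for a member, and where one is said to be past a threshold, nothing is supported by it. PC-3 is an established human cell line of castration-resistant prostate cancer, and CdGAP is a GTPase-activating protein for Rac1 and Cdc42 encoded by ARHGAP31. The study asked what loss of CdGAP does to the transcripts of these cells. It compared 3 RNA samples of cells with a stable lentiviral shRNA against CdGAP (shCdGAP) with 3 samples of cells with a control shRNA (shCon). The methods state that the CdGAP-depleted PC-3 cells were grown from single cells after puromycin selection, and they state no cloning for the control cells. They name PC-3 cells with and without a luciferase reporter as the infected cells, and not which of these were sequenced. The effects of depletion and of a clone therefore cannot be told apart in these data.

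Arginine is made from citrulline in 2 steps, in which ASS1 joins citrulline to aspartate and ASL splits the product into arginine and fumarate. Cells that do not make it take it up through cationic amino acid transporters, and several enzymes then compete for it. Arginase splits it into urea and ornithine, and ornithine feeds either polyamine synthesis or, through OAT, glutamate and proline. Loss of ASS1 is a known feature of many tumours, which then depend on arginine from outside the cell.

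Promoter sequence is shown for 3 members: ASS1 and ARG2, which differed most between the groups in each direction, and ODC1, which shares a motif with ASS1. All are from RefSeq promoter windows on GRCh38.p14, read 5′ to 3′ on the strand of the gene. Capitals mark the 1 motif copy in each printed stretch. The whole windows behind the ARG2 and ODC1 stretches hold 2 copies each, and that of ASS1 holds 1. In ASS1 and ODC1 the capitals are CACGTG, the E-box, a site read by MYC and related factors. In ARG2 they are TGACGTCA, the cyclic AMP response element, and both motifs read the same on either strand.
ASS1, chr9:130444711-130444928, plus strand: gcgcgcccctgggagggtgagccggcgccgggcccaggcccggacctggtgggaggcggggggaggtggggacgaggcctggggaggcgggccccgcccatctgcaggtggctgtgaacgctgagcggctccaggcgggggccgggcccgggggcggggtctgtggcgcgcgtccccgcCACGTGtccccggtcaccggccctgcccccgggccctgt
ARG2, chr14:67619670-67619797, plus strand: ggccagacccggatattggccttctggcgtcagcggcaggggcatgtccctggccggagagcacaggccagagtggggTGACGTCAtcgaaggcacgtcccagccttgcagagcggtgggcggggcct
ODC1, chr2:10448015-10448120, minus strand: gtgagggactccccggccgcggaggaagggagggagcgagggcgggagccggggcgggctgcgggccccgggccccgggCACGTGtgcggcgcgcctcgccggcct

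The ASS1 and ARG2 stretches end at the base before the gene in the deposited annotation, and the ODC1 stretch lies between exons of its longer transcript. The motif starts 71 bases before the RefSeq start of ASS1, 172 bases before that of ARG2 and 29 bases before the nearer of the ODC1 starts. Both strands were searched in 35116 windows of 300 bases, of which 11 belong to 9 of the members. No window was listed for SLC7A2. CACGTG was found in 7.26% of all windows and TGACGTCA in 1.85%, and the 4 motifs searched were chosen after the sequences had been seen. TGATGNAA, found in 3.62% of windows, was present in that of SLC7A1, and TATAAA, found in 11.5%, in that of AGMAT. These matches describe letters only and say nothing about binding in PC-3 cells.

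The libraries held between 33182796 and 43154039 counted reads, with normalization factors from 0.987 to 1.01. ARHGAP31 itself was at 26.8 ± 0.351 CPM (SD, n = 3) among CdGAP-depleted libraries against 59.2 ± 1.22 CPM among controls, where CPM is the read count scaled to library size. One library stood apart. A chi-square comparison of read counts gave 27.2 and 33.3 per degree of freedom for shCdGAP replicate 2 against replicates 1 and 3, and 2.59 to 6.94 for the other pairs within a group. For the members, the log2 CPM of this library was off the mean of the other shCdGAP libraries by a median of 0.132, against 0.149 over all tested genes. The greatest gaps were 0.512 below in GATM and 0.43 below in AGMAT. Keratin genes KRT8 and KRT18 and the prostate factor HOXB13 were abundant in all 6 libraries, while the prostate luminal markers KLK3, KLK2, TMPRSS2 and FOLH1 stayed under 1 CPM, as did all 3 hepatocyte markers. The 3 leukocyte markers summed to at most 1.38 CPM in any library, and the endothelial markers to at most 6.06 CPM, most of it PECAM1. Of the 3 fibroblast markers DCN was near 0, but COL1A2 was at 279 CPM in shCdGAP and 286 CPM in shCon cells. The fibroblast markers summed to 331 to 340 CPM in shCdGAP libraries and 301 to 306 CPM in shCon libraries. Some markers moved with the contrast: in shCdGAP cells the collagen gene COL1A1 rose from 18.0 to 57.1 CPM (log2 fold change 1.67), the epithelial marker EPCAM rose from 83.0 to 212 CPM (1.35), VIM rose from 628 to 1149 CPM (0.87) and CD68 rose from 0.418 to 1.23 CPM (1.55), each with an adjusted p under 0.01 in edgeR, while COL1A2 (-0.04), KRT8 (0.06) and KRT18 (0.09) did not pass. The part of these differences in the results on the members was not tested.

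Of the 10 members, 2 (ARG2 and AGMAT) were higher and 1 (ASS1) was lower in CdGAP-depleted cells past an adjusted p under 0.01 in edgeR's quasi-likelihood test and beyond a log2 fold change of 1 in size. These limits are those of the study, which applied them to DESeq2, and with DESeq2 AGMAT fell just short of the fold limit. Over all tested genes 8.56% were called higher and 4.19% lower by these thresholds. Without the fold limit 3 members were higher, with OAT added, and 1 was lower, against backgrounds of 24.1% and 22%. The shCdGAP libraries lay wholly above the shCon libraries for 5 members, wholly below for 3 and among them for 2, and such separation was found for 34.4% (higher) and 32.7% (lower) of all tested genes. Because the members were chosen on this contrast, nothing is read from these counts. The median log2 fold change was 0.11 over the members and 0.00889 over all tested genes, and the median absolute value was 0.276 and 0.309.

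ASS1, argininosuccinate synthase, catalyses the step that sets the rate of arginine synthesis from citrulline. It lies on chromosome 9 from 130444929 to 130501274 (GRCh38, plus strand). It had 326, 288 and 247 reads in shCdGAP replicates 1, 2 and 3, and 3757, 3689 and 3004 reads in shCon replicates 1, 2 and 3. Every CdGAP-depleted library was far below every control library, and the 3 libraries of a group lay close together. Scaled to library size, the depleted cells were at 7.28 ± 0.719 CPM (SD, n = 3) and the controls at 89.3 ± 1.77 CPM. This is a log2 fold change of -3.62 (standard error 0.0673), a level 12.3-fold lower, and it was -3.55 without shCdGAP replicate 2. In RNA of whole cultures, fewer cells with the transcript and less transcript per cell cannot be told apart.

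ASS1 has many processed pseudogenes, and the counting left out reads that align to several places. Of 14 ASS1 pseudogenes in the tables, 9 had any read (ASS1P1, ASS1P2, ASS1P8, ASS1P9, ASS1P10, ASS1P11, ASS1P12, ASS1P13 and ASS1P14). None exceeded 10 reads in a library, and their sum was 3 to 14 reads per library. The reads at these copies were few beside the 247 to 3757 at ASS1.

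ASL, argininosuccinate lyase, completes the synthesis of arginine. Its reads numbered 601, 693 and 536 after CdGAP depletion and 534, 583 and 461 in the controls. After scaling, the CdGAP-depleted libraries (14.8 to 15.9 CPM) were slightly above the controls (12.7 to 14.0 CPM), with no overlap. The log2 difference was 0.20 (standard error 0.0658) and did not pass the thresholds. The pseudogene ASLP1 had at most 5 reads in a library, and a second gene that shares 563 bases of its exons on the same strand had at most 4. So the enzymes of the consecutive steps stood apart in these libraries: ASS1 was much lower, whereas ASL was slightly higher.

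Uptake was examined through SLC7A1 and SLC7A2, cationic amino acid transporters that carry arginine, lysine and ornithine across the plasma membrane. SLC7A1 lies on chromosome 13 between 29509410 and 29595688, and its reads were 4497, 4456 and 3610 in depleted cells against 4662, 4751 and 3726 in controls. This was 106 ± 4.40 and 112 ± 0.900 CPM, with a log2 fold change of -0.08 (standard error 0.0398). The CdGAP-depleted libraries were all below the controls, but the highest of them (110.9 CPM) nearly reached the lowest control (111.1 CPM). SLC7A2 on chromosome 8 had 3072, 3642 and 2639 reads in shCdGAP cells against 3317, 3263 and 2426 in shCon cells, and the groups overlapped. Its log2 fold change was 0.04 (standard error 0.0498) and changed sign, to -0.02, without shCdGAP replicate 2. Neither transporter passed the thresholds, and both were well expressed in all 6 libraries.

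ARG2, the mitochondrial arginase, splits arginine into ornithine and urea. It lies on chromosome 14 from 67619798 to 67651720. It had 323, 402 and 306 reads in shCdGAP replicates 1, 2 and 3 and 129, 123 and 111 in the shCon replicates. The lowest CdGAP-depleted library (7.97 CPM) was above the highest control (3.36 CPM). The means were 8.70 ± 0.656 and 3.12 ± 0.226 CPM (SD, n = 3), a log2 fold change of 1.48 (standard error 0.104) or 2.80-fold higher, and 1.43 without shCdGAP replicate 2. Exons of VTI1B on the other strand overlap 904 of its 2418 bases. VTI1B held 4047 to 5643 reads per library, and the count tables state that strand was used in counting. The other arginase, ARG1 of the liver, had no read in any library.

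AGMAT, agmatinase, is annotated to split agmatine, a decarboxylated arginine, into putrescine and urea. It lies on chromosome 1 from 15572353 to 15585110. The depleted libraries had 401, 325 and 352 reads and the control libraries 204, 177 and 154. Both groups were separate, although shCdGAP replicate 2 (7.46 CPM) lay below replicates 1 and 3 (9.89 and 10.2 CPM). The log2 difference was 1.01 (standard error 0.135), a level 2.01-fold higher that barely passed the fold limit. It was 1.13 without shCdGAP replicate 2. It fell under the limit without shCdGAP replicate 1 (0.94), without shCdGAP replicate 3 (0.91) and without shCon replicate 2 (0.93), and also in DESeq2 (0.99). Only 82 bases of AGMAT overlap another gene, DNAJC16 on the other strand.

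OAT, ornithine aminotransferase, links ornithine with glutamate semialdehyde in mitochondria. Depleted cells gave 3931, 4257 and 3293 reads, and control cells gave 3174, 3239 and 2463. The CdGAP-depleted libraries (95.8 to 97.7 CPM) were tightly grouped above the controls (74.5 to 76.7 CPM). The log2 fold change of 0.36 (standard error 0.0343), or 1.28-fold higher, was well short of the fold limit, although OAT was past the limit on the adjusted p. Its value was 0.34 without shCdGAP replicate 2.

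ODC1, ornithine decarboxylase, makes putrescine and controls entry into polyamine synthesis. It was the most abundant member, with 27958, 24322 and 23789 reads after depletion against 24236, 25504 and 18596 in controls. In CPM, shCdGAP replicates 1 and 3 (690 and 692) were above the controls (563 to 604) and replicate 2 (558) was below them. The log2 difference was 0.15 (standard error 0.0806). Without shCdGAP replicate 2 it was 0.24 (standard error 0.0263), ODC1 then passed the adjusted p limit, and the members higher at any fold numbered 4. SMS, spermine synthase, acts at the other end of the pathway, where spermidine becomes spermine. Its level was 273 ± 5.29 CPM with CdGAP depleted and 262 ± 5.55 CPM in controls, a log2 fold change of 0.06 (standard error 0.0340). The groups did not overlap, but the lowest depleted library (267.9 CPM) was barely above the highest control (267.5 CPM).

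GATM, glycine amidinotransferase, takes the amidino group of arginine for creatine synthesis. It was close to the detection limit, with 26, 18 and 20 reads in depleted and 33, 28 and 28 in control libraries. The CdGAP-depleted libraries were all lower after scaling, at 0.413 to 0.641 CPM against 0.663 to 0.847 CPM. The log2 difference was -0.49 (standard error 0.237), and -0.32 without shCdGAP replicate 2. At this depth no difference passed the thresholds.

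Between genes, levels were compared per length, as RPKM, the reads per kilobase of exon scaled to library size. In shCon cells the order ran from ODC1 (196 ± 7.07) through SMS (121), ASS1 (29.3 ± 0.581), OAT (22.3), SLC7A1 (14.6), SLC7A2 (9.69), ASL (4.22), AGMAT (1.83) and ARG2 (1.29) to GATM (0.115). No neighbours in that order overlapped in their libraries. In shCdGAP cells the order began with ODC1 (218 ± 25.8) and SMS (127), followed by OAT (28.6), SLC7A1 (13.8), SLC7A2 (9.96), ASL (4.83), AGMAT (3.68), ARG2 (3.60), ASS1 (2.39 ± 0.236) and GATM (0.0821). Here only AGMAT and ARG2 overlapped. ASS1 thus stood in the third place of 10 in control cells and in the ninth place in CdGAP-depleted cells, and the other 9 members kept their order.

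**Figure D1:**
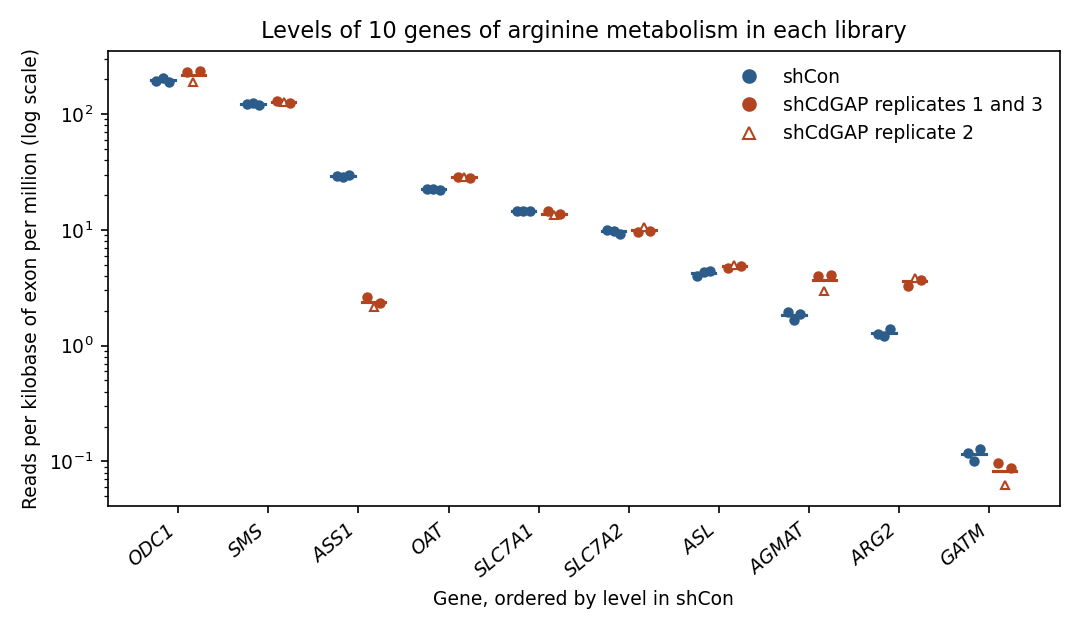
Level per length (RPKM, log axis) of the 10 members in each library, ordered by the shCon level. Points are libraries, horizontal lines are means of 3, and the open triangle is shCdGAP replicate 2. ASS1 is at 29.3 in shCon and 2.39 in shCdGAP cells, and ARG2 and AGMAT are higher in all 3 shCdGAP libraries. By smaller differences, OAT, ASL and SMS are also higher in all 3, and SLC7A1 and GATM are lower in all 3. For SLC7A2 and ODC1 the groups overlap.

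Ratios between members within a library do not depend on its scaling. Per length, the ratio of ASS1 to ASL was 6.94 ± 0.384 in shCon cells (6.63 to 7.37) and 0.495 ± 0.0673 in shCdGAP cells (0.435 to 0.568). In counted reads per length, the synthase thus exceeded the lyase in every control library and was the scarcer of the pair in every CdGAP-depleted library. Any reads lost where ASS1 matches its pseudogenes, or where ASL overlaps another gene, were not corrected for, here or in the order above. The ratio of ARG2 to OAT, the enzymes before and after ornithine, was 0.0578 ± 0.00502 in shCon cells and 0.126 ± 0.00937 in shCdGAP cells. The ratio of SLC7A1 to SLC7A2 was 1.51 ± 0.0676 and 1.39 ± 0.124, with overlap between the groups. ODC1 to SMS was 1.62 ± 0.0242 and 1.72 ± 0.210, also with overlap, because shCdGAP replicate 2 was at 1.48.

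ASS1 was also set against its neighbours on chromosome 9. Of the 10 nearest tested genes on each side, 17 of 20 had a negative log2 fold change, with a median of -0.51 and a range of -1.74 (PRRX2) to 0.84 (LAMC3). Of these 20, 13 were lower and 1 was higher at an adjusted p under 0.01 at any fold. The nearest genes before ASS1 were NCS1 (-0.82, standard error 0.0326), GPR107 (-0.52), FNBP1 (-0.55), USP20 (-0.06) and C9orf78 (-0.32). Those after it were FUBP3 (-0.72, standard error 0.0452), PRDM12 (-0.19), EXOSC2 (-0.64), ABL1 (-0.71) and LAMC3. Lower levels were not particular to this region, since the median was -0.42 over all 662 tested genes of chromosome 9 and -0.47 over the 419 better expressed ones. The share of the ASS1 difference that goes with the chromosome was not tested. The log2 fold change of ASS1 minus the median of the neighbours was -3.11, or 8.62-fold further lower.

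With 5 or 20 genes on each side, genes within 1 Mb, neighbours of higher expression only, DESeq2, or any library left out, that distance stayed between -3.18 and -3.05. Within 3 Mb of ASS1, 112 genes were tested, their median was -0.52, and 1 was as low as ASS1 or lower. That gene was LCN2 (-4.32, standard error 0.496), which encodes lipocalin-2, an iron-carrier binding protein. On the whole chromosome, 5 of 662 tested genes were at or below the ASS1 value, counting ASS1 itself, along with SYK, ZNF883, LCN2 and EGFL7. Among the 419 of them whose average log2 CPM reached 3, they were LCN2 and ASS1. Over all 16439 tested genes, 81 were at or below it. The 4 other chromosome 9 genes were named after their values were seen.

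**Figure D2:**
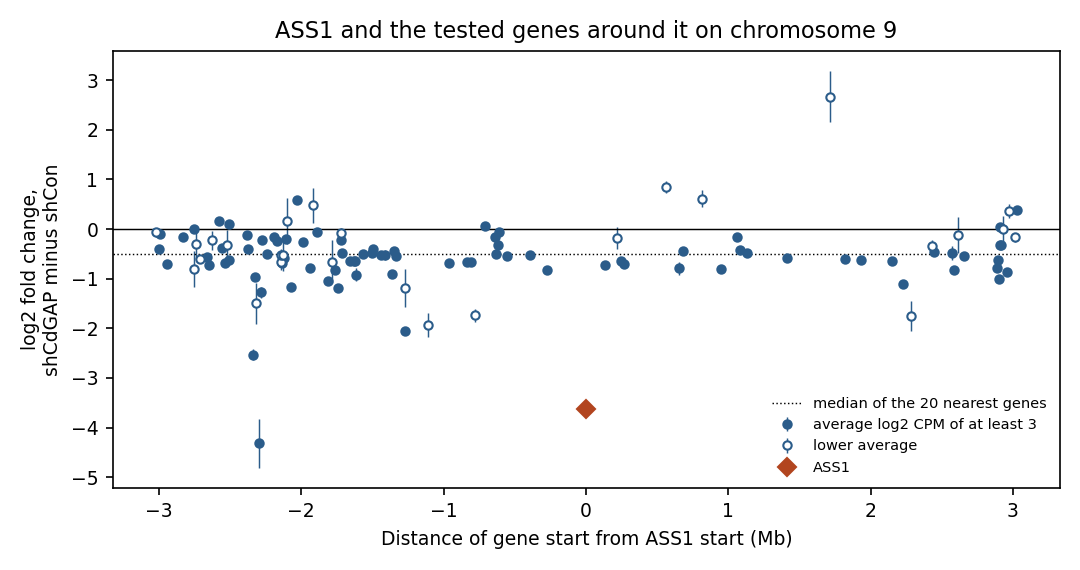
Log2 fold change (shCdGAP minus shCon, with standard error) of the tested genes within 3 Mb of ASS1, against the distance of their start from that of ASS1 in megabases. Filled circles mark genes whose average log2 CPM reached 3. Most of the 112 genes lie around the dotted median of -0.51 of the 20 nearest, and ASS1 (diamond) lies at -3.62 with LCN2 alone below it.

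The genes whose log2 CPM followed ASS1 most closely over the 6 libraries were SPRYD7, INTS6, MED4, RBM26 and IPO5, with Pearson r between 0.9997 and 0.9999 among 10281 genes compared. All 5 lie on chromosome 13 and had log2 fold changes between -1.84 and -1.62. With 2 groups of 3 libraries, r is set mostly by the group difference, and 675 genes had r above 0.99 while 622 had a negative r of that size.

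The wider pathway was followed with 66 other genes of the urea cycle, transport, polyamines, proline, creatine, nitric oxide and methylarginine, and arginine sensing and charging. Of these, 53 had enough reads. Past both limits 2 rose (SLC7A7 and SLC66A1) and 2 fell (NOS1 and CKB) in shCdGAP cells. Each is 3.77% of the 53, against 8.56% called higher and 4.19% called lower over all tested genes. At any fold 13 rose, 12 fell and 28 did not pass an adjusted p under 0.01 in edgeR's test, shares of 24.5% and 22.6% of the 53 that are close to the 24.1% and 22% of all tested genes. The counts by role below stand against the same backgrounds, and with 4 to 17 genes in a role none is read as particular to it. The counts at any fold were 16 and 17 without shCdGAP replicate 2, and 8 and 9 without shCon replicate 1. The median log2 fold change was -0.04. Genes that rose and genes that fell were thus close to equal in number, and they were spread over most of the roles.

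**Figure D3:**
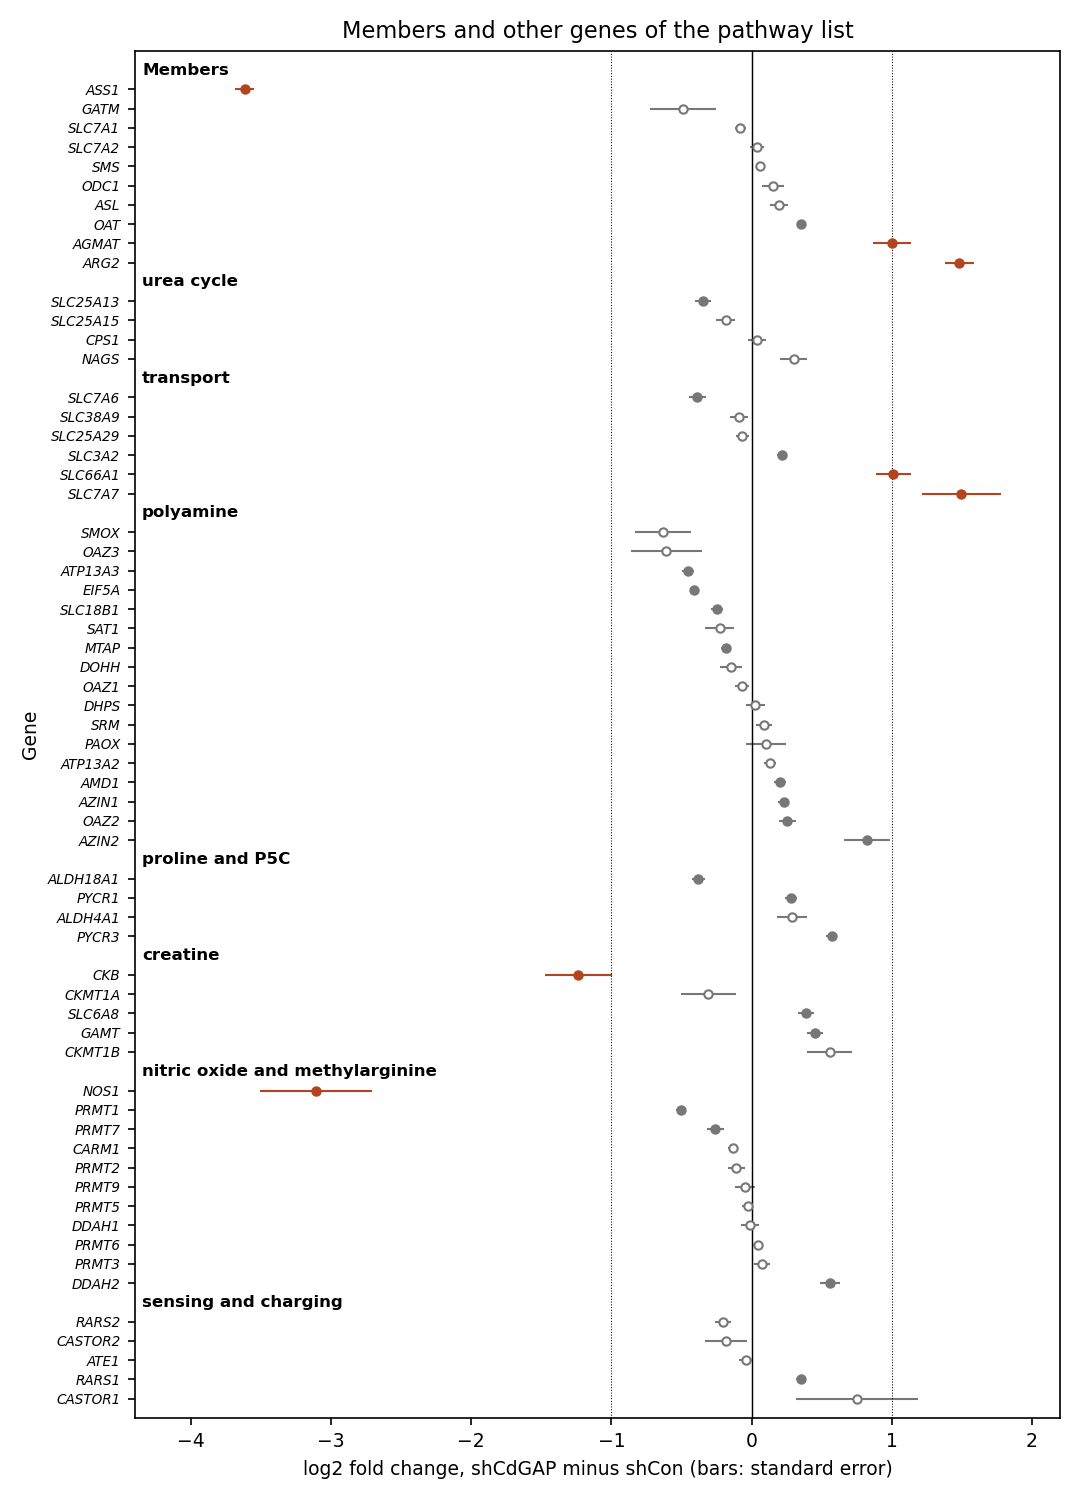
Log2 fold change (shCdGAP minus shCon) with standard error of the 10 members and of tested genes of the pathway list, by role. Filled points passed an adjusted p under 0.01, coloured points also a log2 fold change beyond 1 in either direction (dotted lines). ASS1 at -3.62 and NOS1 at -3.11 lie far to the left, and most other genes lie within 1 of zero.

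In the urea cycle, 1 of 4 tested genes (25%) fell: SLC25A13, the mitochondrial carrier that supplies aspartate for the ASS1 reaction (-0.35, standard error 0.0576, adjusted p = 0.000789 in edgeR). NAGS, which makes the activator of the first urea cycle enzyme, had 0.30, and SLC25A15, the mitochondrial ornithine carrier, had -0.18, and neither passed. OTC, which makes citrulline from ornithine, had 1 read in all, and SLC25A2 had none. CPS1, the enzyme that starts the urea cycle, had 38.9 ± 3.02 and 37.9 ± 1.80 CPM.

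Among transporters, 3 of 6 tested genes rose and 1 fell, where 24.1% and 22% of all genes did. SLC7A7, the light chain of an arginine exporter, had 42, 87 and 50 reads in shCdGAP cells and 19, 23 and 20 in shCon cells (log2 fold change 1.496, standard error 0.281, adjusted p = 0.00161 in edgeR). Its groups did not overlap, and its adjusted p was 0.0111 without shCon replicate 1. SLC66A1, which exports cationic amino acids from lysosomes, had 507, 480 and 438 reads against 273, 277 and 158 (1.01, standard error 0.126, adjusted p = 0.000133 in edgeR). It stayed past the adjusted p limit with any library left out, but its fold change was under 1 without shCdGAP replicate 1 (0.98), shCdGAP replicate 3 (0.97) or shCon replicate 3 (0.87). SLC7A6, the light chain of the related exchanger, fell (-0.39). SLC3A2, the heavy chain that both need at the membrane, rose by 0.22 on the log2 scale (adjusted p = 0.00058 in edgeR).

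Of the 17 polyamine genes 4 rose, 4 fell and 9 did not pass. AMD1, which makes the aminopropyl donor for spermidine and spermine, rose slightly (0.20), as did AZIN1 (0.23) and AZIN2 (0.82, standard error 0.163, adjusted p = 0.00221 in edgeR), inhibitors of the antizymes that mark ODC1 for breakdown. For AZIN2 the adjusted p was 0.0151 without shCon replicate 1 and 0.0137 without shCon replicate 2, and for AZIN1 it was 0.0121 without shCon replicate 1. For AMD1 it was 0.0183 to 0.0194 without any 1 of the shCon replicates. The antizyme OAZ2 also rose (0.26), but its adjusted p was 0.0148 without shCdGAP replicate 1 and 0.0260 to 0.0341 without any 1 of the shCon replicates. EIF5A, the translation factor that carries a residue made from spermidine, fell (-0.41, adjusted p = 8.03e-06 in edgeR), and so did the polyamine transporter ATP13A3 (-0.45). SMOX, spermine oxidase, had 1383, 2429 and 1178 reads against 2648, 2774 and 2109 and did not pass (-0.63, adjusted p = 0.0366 in edgeR). Without shCdGAP replicate 2 its value was -0.92 (adjusted p = 3.42e-23 in edgeR). That fit leaves out the shCdGAP library nearest the controls, and its small p-value rests on the closeness of replicates 1 and 3. OAZ3, with at most 37 reads in a library, had -0.61 and did not pass.

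Genes of proline and pyrroline-5-carboxylate, the product next to OAT, were split. PYCR3 (0.57, adjusted p = 4.10e-06 in edgeR) and PYCR1 (0.28), reductases that make proline, rose. ALDH18A1, which makes the same intermediate from glutamate, fell (-0.38, adjusted p = 0.000102 in edgeR). ALDH4A1, which degrades it, had 0.29 and did not pass, and PRODH had no read. Per length, OAT stood to ALDH18A1 as 0.423 ± 0.00658 in shCon cells and 0.705 ± 0.0347 in shCdGAP cells, with no overlap.

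In creatine metabolism GAMT, the step after GATM, rose (0.45, adjusted p = 0.000156 in edgeR), as did the creatine transporter SLC6A8 (0.39). CKB, brain-type creatine kinase, fell. It had 211, 405 and 160 reads in depleted cells and 653, 625 and 502 in controls, with a log2 difference of -1.24 (standard error 0.238; adjusted p of 0.00341 in edgeR). The CdGAP-depleted libraries were all lower, with replicate 2 nearest the controls, and the value was -1.63 without it. The adjusted p of CKB was over 0.01, between 0.0103 and 0.0119, without shCdGAP replicate 1 or any 1 of the shCon replicates. CKMT1A (-0.31) and CKMT1B (0.56), near-identical copies of mitochondrial creatine kinase whose shared reads were not counted, are uncertain and did not pass, although CKMT1B had an adjusted p of 0.00994 in edgeR without shCdGAP replicate 2.

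Of the 11 tested genes of nitric oxide and methylarginine, 1 rose and 3 (27.3%) fell, close to the 22% lower among all genes. NOS1, the neuronal nitric oxide synthase that turns arginine into citrulline, had 5, 28 and 6 reads in shCdGAP replicates 1, 2 and 3 and 120, 119 and 93 in shCon replicates 1, 2 and 3. All CdGAP-depleted libraries were below the controls (-3.11, standard error 0.399, adjusted p = 0.000227 in edgeR), and without shCdGAP replicate 2 the value was -4.25. NOS2 had no read and NOS3 had 2 in all. PRMT1, the main arginine methyltransferase, fell from 501 ± 9.50 to 354 ± 10.9 CPM (-0.50, adjusted p = 5.00e-06 in edgeR). DDAH2, of the family that degrades methylarginines, rose (0.56, adjusted p = 0.000132 in edgeR). DDAH1 of the same family was at 41.5 CPM in shCdGAP and 41.9 CPM in shCon cells and did not pass (-0.01, adjusted p = 0.879 in edgeR).

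**Figure D4:**
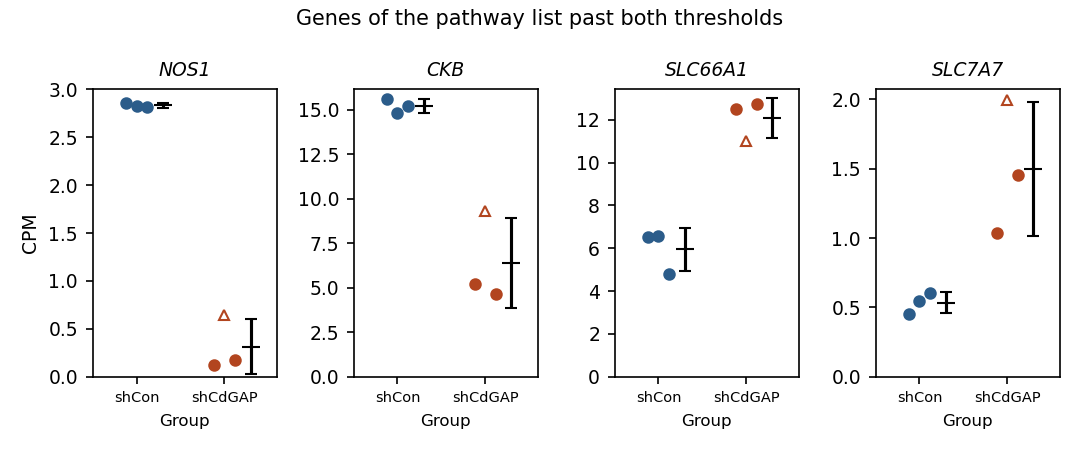
CPM of the 4 genes of the pathway list past both thresholds in each library, with the mean and SD of 3 beside the points (axes start at 0). Open triangles are shCdGAP replicate 2. In all 4 genes the groups do not overlap, and replicate 2 lies nearest the controls for NOS1, CKB and SLC66A1 and farthest for SLC7A7.

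The 5 genes listed under arginine sensing and charging were CASTOR1, CASTOR2, RARS1, RARS2 and ATE1. RARS1, the cytosolic arginyl-tRNA synthetase, rose (0.35, adjusted p = 2.90e-05 in edgeR), while ATE1 (-0.04) did not pass. The mitochondrial synthetase RARS2 (-0.20, adjusted p = 0.0117 in edgeR) narrowly missed the limit, and passed it in DESeq2 (0.00728), with no filter on low counts (0.00102) and without shCdGAP replicate 2 (4.55e-08). The last of these fits leaves out the shCdGAP library nearest the controls. The cytosolic sensors CASTOR1 (0.75, with at most 42 reads in a library) and CASTOR2 did not pass.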

How the data were processed

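The 6 PC-3 libraries (3 shCdGAP, 3 shCon) were grouped by title. Per the methods they are independent samples. The files hold whole-number read counts for each gene as deposited by the authors, who aligned reads to GRCh38 with STAR 2.5.1b. According to the table headers, featureCounts 1.6.0 counted pairs by strand on Ensembl release 77 genes. The submitters' notes instead name featureCounts 1.4.6, and the methods a kit for single reads. Reads aligning to several places were left out. Differences were fitted with edgeR 4.0.16 in R 4.3.3, using filterByExpr, TMM scaling and its robust quasi-likelihood test without pairing, and p-values were adjusted by Benjamini-Hochberg over 16439 genes. CPM and RPKM use TMM library sizes and the exon lengths in the tables. Tested on simulated counts of this comparison (16209 genes), the fit called 49 to 50 of the 50 genes at each known log2 change of 1.5 or 2 in either direction and 0 of 16009 unchanged genes. The changed genes were drawn above a minimum average CPM, and no library was made to stand apart. Recovery of scarcer genes, such as NOS1 and SLC7A7, was therefore not measured. Python 3.11.15 prepared the tables.

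The members and gene lists were chosen with earlier results of these data known. Named genes are all members, ARHGAP31, pathway genes past the thresholds and the 3 per role with the greatest absolute change, the 5 genes on each side of ASS1, member pseudogenes with reads and the 5 genes most like ASS1. Others were named after their values were seen, and some listed genes are counted but not reported here by name. Alternatives were DESeq2 1.42.0, other scaling and filters, a replicate block and each library left out. No single-gene permutation was run, since 3 libraries against 3 allow no exact two-sided p below 0.1.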

Additional observations from a re-analysis of the deposited data

How the results depend on the processing

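No member called and no pathway gene with an adjusted p under 0.01 changed direction under any alternative run. Of 120 refits of the members' log2 fold changes, 117 moved by less than the spread between replicates and 3 by more. Members called higher numbered 1 in DESeq2 and 1 with the replicate block, where AGMAT was at 0.99 and 0.996, and 1 to 2 with a library left out. Deviations of same-numbered libraries from their group means correlated weakly (r of 0.0306, 0.0499 and 0.0469), against -0.0741 to 0.0275 for the other pairs. Whether same-numbered libraries share a batch was not tested. Pathway genes called higher numbered 1 to 2 with a library left out. Pathway genes called lower numbered 1 with no filter on low counts, where CKB had an adjusted p of 0.0448 in edgeR, and 1 with at least 10 reads required in every library, since NOS1 was then not tested, and 1 to 2 with a library left out. Pathway genes higher at any fold numbered 8 to 16 with a library left out, and lower 9 to 17. Of 635 refits of the 53 tested pathway genes, 595 kept their side of the adjusted p threshold, 29 lost significance and 11 gained it. Levels per length kept their order as TPM, which was 3.98 to 4.07 times the printed values. Depth limits GATM, OAZ3 and CASTOR1.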

Other observations

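The surroundings of the other members were described in the same way as those of ASS1, from the 20 nearest tested genes of each. Around ASL on chromosome 7, 18 of 20 genes had a negative log2 fold change and the median was -0.27, whereas ASL was at 0.20. Around SLC7A1 on chromosome 13, 18 of 20 were negative with a median of -0.41, and SLC7A1 was at -0.08. Around AGMAT on chromosome 1, 17 of 20 were positive and the median was 0.53, so AGMAT at 1.01 was 0.47 above its neighbours. ARG2 on chromosome 14 stood 1.42 above a median of 0.06. For SLC7A2, ODC1 and SMS, medians lay between 0.06 and 0.08, and for OAT and GATM they were -0.11 and -0.12. No test was run on these distances.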
